A study of Homo sapiens with 6 samples.

Results

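This account covers 10 genes that encode alpha subunits of heterotrimeric G proteins: GNAL, GNAS, GNAI1, GNAI2, GNAI3, GNAQ, GNA11, GNA12, GNA13 and GNA15. They were chosen by family, except GNAL, which was picked for its difference between the vectors, so its difference is given as a description with no test. All 10 had at least 1 probe set paired with their symbol alone, out of 18377 genes measured, and the brightest probe set stood for each gene. The cells were MDA-MB-231 (MDA-MB231 in the labels), an established human breast cancer line of mesenchymal, triple-negative character. GHSROS cells carried the pTargeT mammalian expression vector with GHSROS, a long noncoding RNA transcribed antisense to the ghrelin receptor gene GHSR, and control cells carried the empty pTargeT vector. Total RNA from 3 cultures per group, called biological replicates by the submitters, was read on 6 Affymetrix Human Gene 1.0 arrays. No clone, selection or time after transfection is given in the labels.

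A heterotrimeric G protein joins an alpha subunit, which binds GDP or GTP, to a beta-gamma dimer. A receptor activated by its ligand opens the alpha subunit for GTP, and alpha and beta-gamma then act on their effectors until the alpha subunit hydrolyses the GTP. GNAS and GNAL encode the alpha subunits of Gs and Golf, which stimulate adenylyl cyclase. The Gi subunits inhibit it, those of the Gq class activate phospholipase C-beta and those of G12 and G13 act on the actin cytoskeleton. GNAL is best known from olfactory neurons and the striatum, where it carries signals from odorant and dopamine receptors.

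Values are the authors' log2 expression per probe set, so a difference of 1 is a doubling, and the array medians lay between 6.559 and 6.648. Genes were compared with limma, a linear model with moderated errors, and a gene was called at a Benjamini-Hochberg adjusted p of 0.05 over all genes. In this fit 0 of 18377 genes (0.0%) were called, and 325 (1.77%) had an unadjusted p under 0.05. GHSROS array 3 and empty-vector array 1 stood apart from the others: 20 mitosis genes averaged 11.19, 11.14 and 10.16 on GHSROS arrays 1 to 3 and 10.15, 10.98 and 11.19 on the empty-vector arrays. Of 9 mesenchymal markers measured, VIM, CD44, AXL, MSN and CAV1 lay between 12.35 and 13.37 on every array. FN1 lay between 11.52 and 12.37, PLAU between 10.04 and 11.30, TGFBI between 8.42 and 9.76 and SPARC between 5.86 and 6.64. Of 10 luminal markers, ESR1, PGR and CDH1 lay between 4.41 and 5.35, and FOXA1, EPCAM, GATA3 and ERBB2 between 6.68 and 8.99. The luminal keratin genes KRT8, KRT18 and KRT19 lay between 11.56 and 12.16. Of the 10 luminal markers, 4 were higher and 6 lower with GHSROS. FOXA1 differed by 0.35 (SE 0.085), with every GHSROS array above every empty-vector array, and KRT19 by -0.28 (SE 0.115). Of the 9 mesenchymal markers, 3 were higher and 6 lower. VIM differed by -0.17 (SE 0.096), with every GHSROS array below every empty-vector array. The groups were separated in either direction in 5.51% of all genes. Array levels of bulk RNA do not tell fewer cells that express a gene from less RNA per cell. No probe set was named for GHSROS in the annotation used, so the labels could not be checked on the transfected RNA.

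GNAL, the alpha subunit of Golf, was the member with the largest difference, and the other 9 members lay close to 0. GNAL read 7.83, 7.61 and 7.66 on the GHSROS arrays, against 7.08, 7.21 and 6.99 on the empty-vector arrays. Every GHSROS array was above every empty-vector array, and the gap between the nearest arrays of the groups was 0.40. The means were 7.70 ± 0.11 with GHSROS and 7.10 ± 0.11 with the empty vector (SD, n = 3 each), a 1.52-fold higher level. Of all genes, 0.337% had a larger absolute difference and 28 a larger one in the same direction. These values chose GNAL and support nothing by themselves. GNAL did not follow the arrays that stood apart: GHSROS array 3 was the middle value of its group, as was empty-vector array 1. Without those 2 arrays the difference was 0.62 on the log2 scale. GNAL averaged 7.40 over the 6 arrays, near the median gene level of 7.54, which does not tell whether the cells express GNAL.

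**Figure D1:**
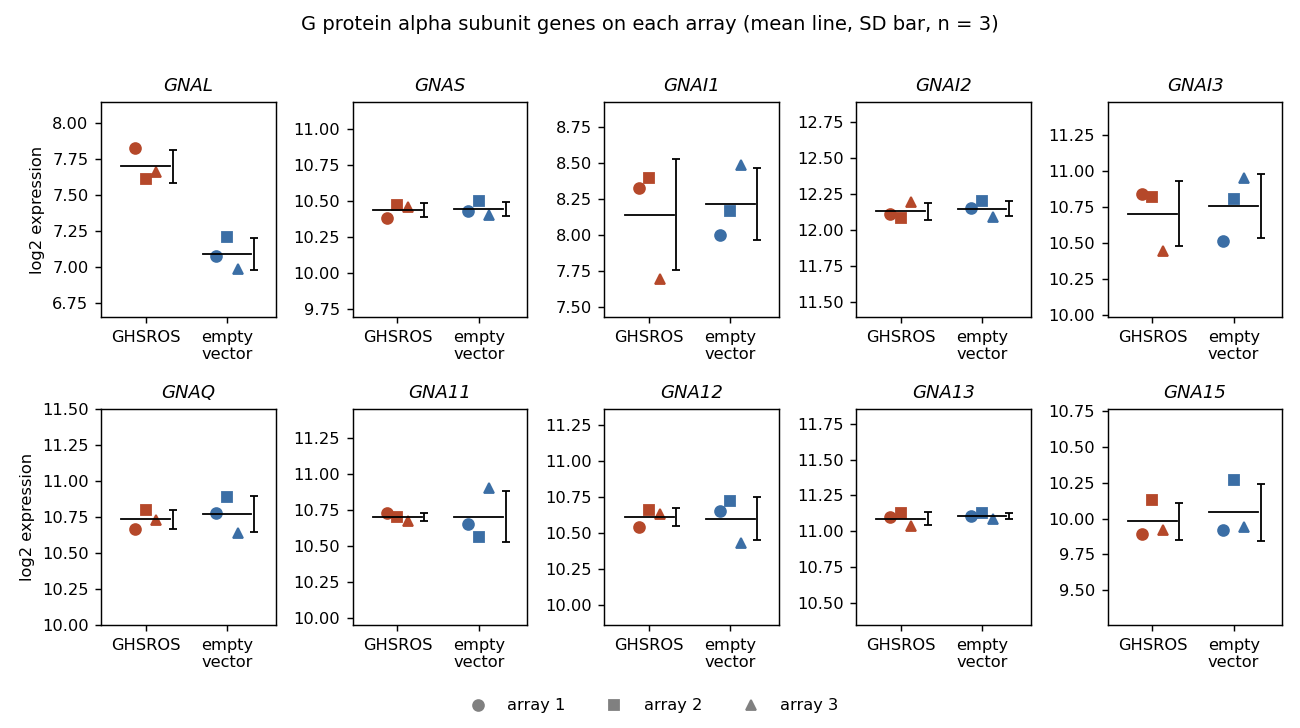
Log2 expression of the 10 alpha subunit genes on each array, GHSROS on the left and empty vector on the right of every panel, with a line at the mean, an SD bar (n = 3) and marks for arrays 1 to 3. Every panel spans the same 1.5 log2 units. The GNAL groups are apart (7.61 to 7.83 with GHSROS, 6.99 to 7.21 with the empty vector), and the groups of the other 9 genes overlap.

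The GNAL probe set (8020164) is assigned to the gene as a whole, and which of its transcript starts contributed to the value is not known. RefSeq gives 5 start-site windows for GNAL on chromosome 18, each of 250 bases before and 50 after a start (GRCh38.p14, plus strand). Of these, 3 that do not overlap are printed, because GNAL is the member that differed and its starts have different sequence character. Capitals mark the motifs searched on both strands: the cAMP response element TGACGTCA, its shorter form TGACG (held within the full element), the GC box GGGCGG, and the decamer ATTTACGGTA, the string of 10 letters with the most copies in the first window.
GNAL start window 1, chr18:11689014-11689313: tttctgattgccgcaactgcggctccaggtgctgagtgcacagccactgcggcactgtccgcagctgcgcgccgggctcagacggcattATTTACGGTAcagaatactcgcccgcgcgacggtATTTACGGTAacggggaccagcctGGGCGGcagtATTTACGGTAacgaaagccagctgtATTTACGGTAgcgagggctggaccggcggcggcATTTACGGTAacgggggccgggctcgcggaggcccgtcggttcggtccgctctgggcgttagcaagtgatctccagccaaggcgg
GNAL start window 4, chr18:11751835-11752134: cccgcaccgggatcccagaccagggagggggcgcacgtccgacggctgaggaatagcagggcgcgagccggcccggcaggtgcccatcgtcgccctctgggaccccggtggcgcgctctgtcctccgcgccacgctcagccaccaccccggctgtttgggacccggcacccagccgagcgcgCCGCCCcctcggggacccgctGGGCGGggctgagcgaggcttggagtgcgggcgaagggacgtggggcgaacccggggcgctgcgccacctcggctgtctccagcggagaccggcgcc
GNAL start window 5, chr18:11857503-11857802: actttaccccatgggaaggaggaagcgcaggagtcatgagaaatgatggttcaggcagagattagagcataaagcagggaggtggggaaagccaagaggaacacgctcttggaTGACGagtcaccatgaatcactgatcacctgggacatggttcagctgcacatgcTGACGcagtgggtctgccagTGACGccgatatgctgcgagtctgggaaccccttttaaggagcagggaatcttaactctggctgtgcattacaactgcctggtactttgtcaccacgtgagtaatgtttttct
Window 1, at the gene's outermost start, held 5 copies of the decamer in the same orientation, beginning 161, 127, 93, 68 and 35 bases before the start. Of 35116 RefSeq windows of this length, 7 (0.0199%) held the decamer at all, and no other window had more than 1 copy. The decamer was picked for its copies in window 1, so these counts are a description. Repeats of other strings in other windows were not searched, so the counts do not set GNAL apart from them. Window 4 was 77% G and C, with 39 CpG sites and 2 GC boxes, beside a median of 58.7% and 14 CpG sites over all windows. Window 5 held 8 CpG sites and 3 copies of TGACG, which 24.6% of all windows held at least once. The full TGACGTCA, present in 1.85% of windows, was in none of the 22 windows of the 8 members that have an entry. GC boxes, found in 45% of all windows, were most numerous at GNA11, with 7, and GNA13, with 6 in its first window. Such matches describe letters and say nothing of a factor's binding.

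GNAL overlaps other genes on chromosome 18, and the 6 measured neighbours on its sides gave smaller differences. CHMP1B, an ESCRT-III gene that lies inside the span of GNAL in the RefSeq annotation, read 9.50, 9.55 and 9.89 with GHSROS, against 9.92, 9.61 and 9.23 with the empty vector. Its groups overlapped, at a log2 fold change of 0.06 (SE 0.19). MPPE1, which also overlaps the span of GNAL, differed by 0.12 (SE 0.11), and IMPA2, an inositol monophosphatase gene beyond it, by -0.11 (SE 0.08) with its groups apart in the other direction. On the other side PIEZO2, a mechanically gated channel gene, read 7.91 on GHSROS array 3 and 8.37 on empty-vector array 1, against 6.22 to 6.56 on the other arrays, and differed by -0.28 (SE 0.66). NAPG and APCDD1 differed by 0.09 (SE 0.08) and 0.11 (SE 0.09), with groups that overlapped. The strand that the probe sets read is not stated in the sources at hand, so signal from a gene that overlaps GNAL cannot be assigned by strand.

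The other subunit that stimulates adenylyl cyclase, GNAS, an imprinted gene on chromosome 20 and the widely expressed counterpart of GNAL, was nearly level across arrays. It read 10.38, 10.47 and 10.46 with GHSROS, against 10.43, 10.50 and 10.40 with the empty vector. The 6 values spanned 0.12, and 98% of all genes had a wider span. The log2 fold change was -0.005 (SE 0.081), with a 95% confidence interval from -0.20 to 0.19. Which transcripts of the locus this probe set reads is not known, so a shift between them could not be examined.

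Among the Gi subunits, GNAI2 was steady, while GNAI1 and GNAI3 varied more among the cultures of a group than between the vectors. GNAI2 read 12.11, 12.08 and 12.19 with GHSROS, against 12.15, 12.20 and 12.09 with the empty vector, a log2 fold change of -0.02 (SE 0.08). Its dimmer probe set (8079964) read 8.18, 8.15 and 8.46 with GHSROS, against 8.37, 8.09 and 8.21, a log2 fold change of 0.04 (SE 0.12). The probe sets of GNAI2 thus differed in sign, each by less than its SE. GNAI1 read 8.33, 8.40 and 7.70 with GHSROS, against 8.00, 8.17 and 8.49 with the empty vector. GNAI3 read 10.84, 10.82 and 10.44 with GHSROS, against 10.51, 10.80 and 10.95 with the empty vector. In GNAI1 and in GNAI3 the lowest arrays were GHSROS array 3 and then empty-vector array 1, and the highest was empty-vector array 3. Those lowest arrays are the ones on which mitosis genes were also lowest and on which 20 ATF4 stress genes averaged 10.05 and 10.00, against 8.86 to 9.33 elsewhere. The part that these differences between cultures play in GNAI1 and GNAI3 was not tested. Their log2 fold changes between the vectors were -0.08 (SE 0.22) and -0.05 (SE 0.16), and the interval of GNAI1, from -0.59 to 0.43, was the widest of the 9. Without the 2 arrays that stood apart the values were 0.04 (SE 0.14) for GNAI1 and -0.04 for GNAI3.

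**Figure D2:**
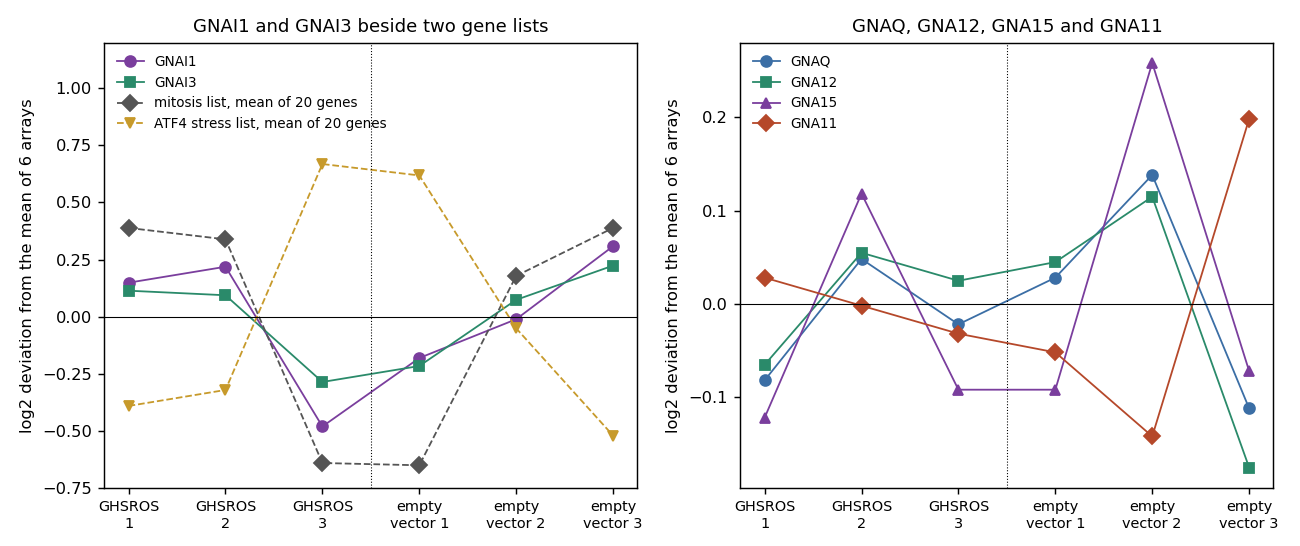
Deviation of each gene (or of the mean of a 20-gene list) from its mean over the 6 arrays, in log2 units, with GHSROS arrays 1 to 3 left of the dotted line and empty-vector arrays 1 to 3 right of it. Left, GNAI1, GNAI3 and mitosis genes are lowest on GHSROS array 3 and empty-vector array 1, where ATF4 stress genes are highest. Right, GNAQ, GNA12 and GNA15 peak on empty-vector array 2, where the brighter GNA11 probe set is lowest.

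The Gq class showed small differences among cultures and none that separated the vectors. GNAQ, which encodes the alpha subunit of Gq, read 10.67, 10.80 and 10.73 with GHSROS, against 10.78, 10.89 and 10.64 with the empty vector (log2 fold change -0.04, SE 0.10). GNA11, its close relative on chromosome 19, read 10.73, 10.70 and 10.67 with GHSROS, against 10.65, 10.56 and 10.90. The GHSROS arrays of GNA11 fell between the empty-vector arrays, with SDs of 0.03 for GHSROS and 0.17 for the empty vector. GNA11 was highest on empty-vector array 3, where GNAQ was lowest, and lowest on empty-vector array 2, where GNAQ was highest. A further GNA11 probe set (8024566) read 10.14, 10.13 and 9.78 with GHSROS, against 9.95, 9.95 and 10.22. It was likewise highest on empty-vector array 3, but lowest on GHSROS array 3 and not on empty-vector array 2. Its log2 fold change was -0.02 (SE 0.14), beside -0.003 (SE 0.11) for the brighter probe set. GNA15 follows GNA11 as the next protein-coding gene on chromosome 19 and is known from blood cells as the promiscuous partner of many receptors. It read 9.89, 10.13 and 9.92 with GHSROS, against 9.92, 10.27 and 9.94. In either group array 2 was the highest for GNA15, and the log2 fold change was -0.06 (SE 0.13). Of the 6 blood cell markers measured, PTPRC, LYZ and CD3E lay between 3.55 and 5.21 on the 6 arrays, while SPI1 lay between 6.81 and 6.97, TYROBP between 7.55 and 7.82 and CD68, a lysosomal protein gene, between 12.06 and 12.66.

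GNA12 and GNA13, whose products act on the actin cytoskeleton, differed by at most 0.02 in size. GNA12 read 10.54, 10.66 and 10.63 with GHSROS, against 10.65, 10.72 and 10.43 with the empty vector. Its order across arrays was that of GNAQ, highest on empty-vector array 2 and lowest on empty-vector array 3, and its log2 fold change of 0.007 (SE 0.10) became -0.004 after centring on array medians. GNA13 read 11.10, 11.13 and 11.04 with GHSROS, against 11.11, 11.13 and 11.09, the narrowest span of the 10 members, at 0.10. A further probe set that GNA13 shares with UQCRH and UQCRHL was not used.

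Of the 9 members other than GNAL, 0 were called, beside 0.0% of all genes, and 0 had groups that did not overlap. Over all genes the groups did not overlap in 5.51%, with 3.06% higher and 2.44% lower in GHSROS. The log2 fold changes of the 9 ran from -0.079 to 0.007, with a median of -0.02, while the median over all genes was 0.002. In the deposited values 1 of the 9 was higher and 8 were lower, after quantile normalization 4 were higher and 5 lower, and after centring on array medians 0 were higher and 9 lower. Their 95% confidence intervals reached at most 0.59 in size, for GNAI1, and for 6 of the 9 the bounds stayed within 0.27. These misses of the threshold do not show that the levels were equal. Without the 2 arrays that stood apart, 1 of the 10 members had groups apart, beside 25.3% of all genes with the 4 arrays left. That member was GNAL, whose groups were apart on all 6 arrays and so could not overlap on fewer. The count therefore adds nothing for GNAL.

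**Figure D3:**
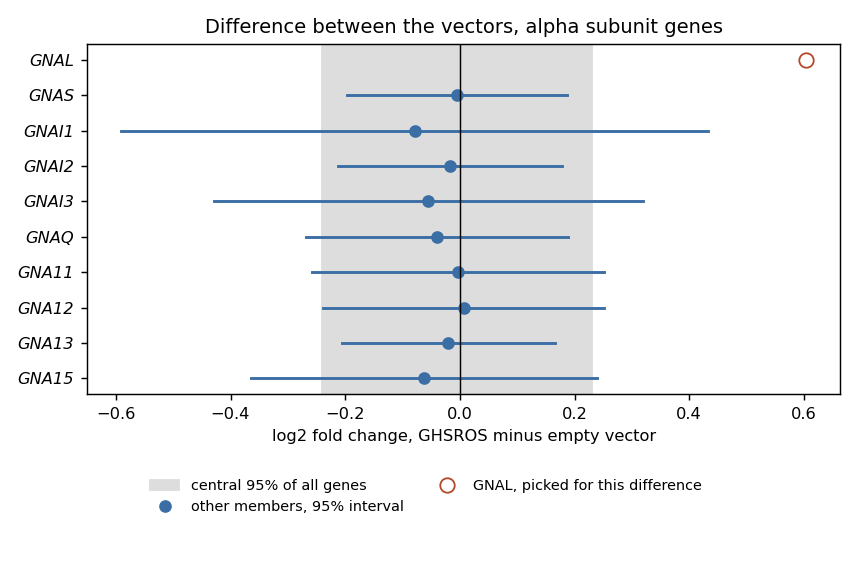
Log2 fold change, GHSROS minus empty vector, of the 10 alpha subunit genes, with 95% confidence intervals from limma for the 9 members not chosen on this difference. The grey band holds the central 95% of all genes, from -0.24 to 0.23, and GNAL at 0.60 lies outside it, while the other 9 points lie inside.

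The genes whose profile over the 6 arrays was most like that of GNAL were ADAP2, CSF3, FZD3, NREP and SLC4A4, among 3386 genes at or above the median level with an SD of at least 0.2. Their Pearson coefficients with GNAL ran from 0.896 to 0.943 over 6 arrays, which share the vector difference itself, and are given as a description. ADAP2, which encodes a GTPase-activating protein for Arf, read 8.27, 8.11 and 8.12 with GHSROS, against 7.66, 7.93 and 7.81 with the empty vector. Likeness to GNAL favours genes with groups apart, and all 5 had them. FZD3, a Wnt receptor gene, and CSF3, a cytokine gene, differed by 0.75 (SE 0.16) and 0.54 (SE 0.14), the bicarbonate transporter gene SLC4A4 by 0.70 (SE 0.18) and NREP by 0.34 (SE 0.09).

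The remaining alpha subunit genes, of the retina, brain and other tissues, gave low values with overlapping groups in the 5 that were measured, and GNAT3 was not analysed here. GNAO1, the neuronal Go subunit, read 6.31, 6.15 and 6.35 with GHSROS, against 6.13, 6.10 and 6.35 with the empty vector. GNAZ differed by -0.04 (SE 0.12), the transducin genes GNAT1 and GNAT2 by -0.02 (SE 0.09) and 0.04 (SE 0.10), and GNA14 by 0.11 (SE 0.10). Of the 5 beta subunit genes, GNB1, GNB2, GNB3 and GNB4 differed by 0.02, -0.04, 0.06 and 0.003. GNB5, which pairs with RGS proteins in neurons, read 8.76, 8.66 and 8.72 with GHSROS, against 8.57, 8.65 and 8.62, so that its groups were apart by a small margin (log2 fold change 0.10, SE 0.08). Of 11 gamma subunit genes measured, 6 were higher, 5 lower and 0 called. The largest difference was 0.19 (SE 0.10) for GNG8, known from olfactory neurons of rodents, with groups apart. GNGT2 differed by 0.18 (SE 0.14), GNG2 by -0.17 (SE 0.25) and GNG7, known as the striatal partner of Golf in mouse, by 0.10 (SE 0.10). RIC8B, a chaperone of the Gs and Golf subunits, differed by 0.04 (SE 0.13). GNG7 and RIC8B were singled out after their values were seen.

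Genes listed as upstream or downstream of Gs and Golf gave 0 calls. Of 10 adenylyl cyclase genes, 5 were higher and 5 lower. ADCY10, the soluble cyclase, is counted among the higher ones but is not a target of Gs or Golf. ADCY3 and ADCY5, the cyclases known to act with Golf in olfactory neurons and in the striatum, differed by 0.04 (SE 0.14) and 0.07 (SE 0.12). ADCY6 had the largest value, 0.19 (SE 0.13), with 8.54, 8.60 and 8.87 for GHSROS and 8.55, 8.58 and 8.30 for the empty vector. ADCY10 differed by 0.13 and ADCY1 by -0.12, and ADCY2, ADCY4, ADCY7, ADCY8 and ADCY9 by between -0.07 and 0.02. Among 22 Gs-coupled receptor genes measured, 15 were higher and 7 lower. DRD1, the dopamine receptor that signals through Golf in the striatum, read 4.83, 4.75 and 4.97 with GHSROS, against 4.55, 4.36 and 4.73, with groups apart and a log2 fold change of 0.30 (SE 0.12). These values lay below the array medians and do not tell whether the cells express DRD1. Of 9 neuronal and olfactory markers, DRD1 and ADCY3 included, 5 were higher and 4 lower. OMP, at 7.52 to 7.75, differed by 0.04 (SE 0.09) and CNGA2, at 4.76 to 5.07, by -0.07 (SE 0.11). SYT1 differed by -0.29 (SE 0.13), SNAP25 by -0.10 (SE 0.13) and TAC1 by -0.05 (SE 0.09). PENK and PPP1R1B differed by 0.08 (SE 0.12) and 0.08 (SE 0.085). Among the Gs-coupled receptors FSHR, that of follicle-stimulating hormone, also had groups apart (0.22, SE 0.12), and ADCYAP1R1 differed by 0.19 (SE 0.12). FSHR read 3.81 to 4.33, likewise below the array medians, which does not tell whether the cells express it.

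Among 13 PKA and EPAC genes, 8 were higher and 5 lower, with PKIG, an inhibitor of PKA, at -0.32 (SE 0.16), the catalytic subunit gene PRKACB at -0.20 (SE 0.18) and PKIB at 0.15 (SE 0.12). Of 15 cAMP phosphodiesterase genes, 6 were higher and 9 lower, with PDE3A at -0.21 (SE 0.10), PDE3B at 0.18 (SE 0.22) and PDE2A at -0.17 (SE 0.15). PDE4C was apart at -0.08. CREB targets are genes that cAMP signalling raises through the transcription factor CREB. The list also held CRTC2 (0.11), which that definition does not cover, and PDE4B and PDE4D, counted among the phosphodiesterases too. Its 18 measured genes were split 9 to 9 with a median of 0.01. Among them FOS differed by -0.32 (SE 0.28), INHBA by 0.23 (SE 0.25) and SST by 0.19 (SE 0.12). NR4A1, an orphan nuclear receptor gene, read 7.42, 7.51 and 7.49 with GHSROS, against 7.27, 7.30 and 7.33, with groups apart (0.17, SE 0.08).

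**Figure D4:**
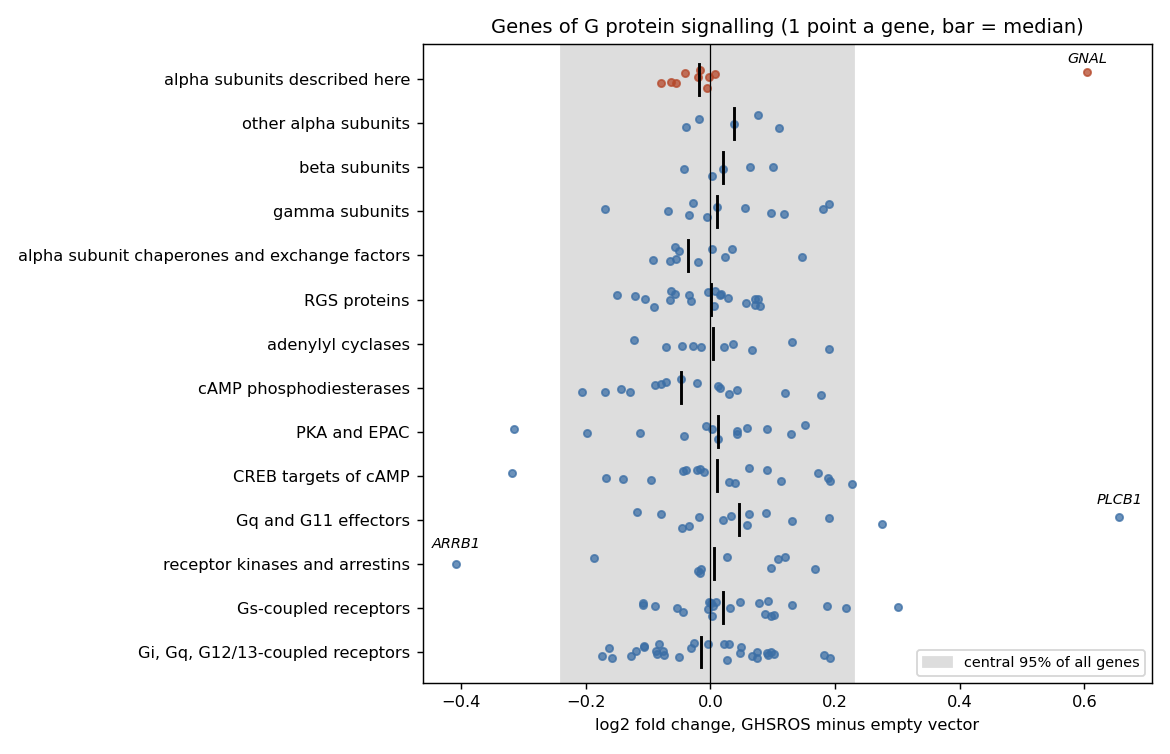
Log2 fold change, GHSROS minus empty vector, of each gene in the alpha subunit set and in 13 lists of partners, effectors, regulators and receptors, 1 point a gene with a bar at the list's median. The grey band holds the central 95% of all genes (-0.24 to 0.23). Medians lie between -0.05 and 0.05, and GNAL, PLCB1 and ARRB1 lie farthest out.

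Among effectors of Gq, 9 of 14 genes were higher and 5 lower. PLCB1, a phospholipase C-beta that Gq activates, had the largest difference of the pathway genes, with 5.24, 4.60 and 5.48 for GHSROS and 4.29, 4.45 and 4.61 for the empty vector. GHSROS array 2 lay just below empty-vector array 3, so the groups overlapped, and the log2 fold change was 0.66 (SE 0.22) at a level below the array medians. PLCB4 differed by 0.28 (SE 0.23) and the calcium channel gene ITPR2 by 0.19 (SE 0.19). KALRN was apart at 0.06.

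Regulators of the cycle were likewise mixed. RGS genes, whose products speed GTP hydrolysis by Gi and Gq subunits, were split 10 to 10 with a median of 0.001, and RGS4 had the largest difference, -0.15 (SE 0.36). RGS7 differed by -0.12 (SE 0.19) and RGS8 by -0.11 (SE 0.08, groups apart). Of 10 genes listed as chaperones, exchange factors or other regulators of alpha subunits, 4 were higher and 6 lower. RGS14 is counted both here and among the RGS genes. CCDC88A, which encodes girdin, had the largest difference, 0.15 (SE 0.21), with NUCB1 at -0.09 (SE 0.20) and GPSM3 at -0.07 (SE 0.14). Receptor kinases and arrestins were split 5 to 5. ARRB1, which encodes beta-arrestin-1, read 10.11, 10.40 and 11.07 with GHSROS, against 11.41, 10.90 and 10.50, so that it was highest on the arrays where mitosis genes were lowest (log2 fold change -0.41, SE 0.30). GRK5 differed by -0.19 (SE 0.17), GRK3 by 0.17 (SE 0.14) and ARR3, at a low level, by 0.10 with groups apart. Of 30 receptor genes listed under Gi, Gq or G12 and G13, 14 were higher and 16 lower, and the coupling of each was not examined. The largest differences were those of BDKRB2 (0.19, SE 0.15), ACKR3 (0.18, SE 0.10, at a low mean level of 3.99) and ADGRG1 (-0.17, SE 0.15). CXCR1, at a low mean level of 4.68, was apart at 0.09 and ADGRE5 at -0.16. GHSR, the gene opposite GHSROS, differed by -0.004 (SE 0.11). Its mean level of 5.82 lay below the array medians, which does not tell whether the cells express it.

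Over all 180 measured genes of these 13 lists, 97 were higher and 83 lower, with a median of 0.007 beside 0.002 over all genes. After centring on array medians the split was 87 higher and 93 lower. The groups were apart in 11 of them, 8 higher and 3 lower, 6.11% of the list beside 5.51% of all genes, and 0 were called.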

How the data were processed

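RNA of 6 cultures was read on 1-colour Affymetrix arrays, 3 with GHSROS and 3 with the empty vector, grouped by their titles. The deposited values are log2 expression from RMA, which the authors ran per the submitters' processing notes, and its version, steps and filters are not stated there. RMA usually equalises the arrays' distributions, which would remove a shift common to most genes, and it can compress differences at low signal. Precision is limited by the number of arrays.

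Of 28869 probe sets, 19310 had 1 gene symbol in the platform annotation, 1752 had several and 7807 were unlisted. Entrez identifiers of 19279 matched a RefSeq table of GRCh38.p14, and 0 symbols changed. The brightest probe set by its mean of 6 arrays stood for each of 18377 genes. limma 3.58.1 in R 4.3.3 (lmFit and eBayes, two-sided, with a term for the vector) was run on all genes without a filter. The p-values were adjusted by Benjamini-Hochberg over all genes. A trial on simulated data came first, with independent noise and shifts larger than the difference of GNAL. It therefore does not bear on the absence of calls. If the cultures were not separate, the p-values cover technical spread alone.

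The members, the lists and the alternatives were chosen with earlier results of these data known. Named genes were the members, all other alpha, beta and adenylyl cyclase genes measured, and GHSR. The 3 largest differences in each pathway list were also named. Any other gene of those lists whose groups were apart was added after its values were seen. Further named were 3 neighbours on either side of GNAL, the 5 genes most like GNAL, and the markers except 6 for fibroblasts. Start-site sequences are from RefSeq, and 8 of 10 members had one (GNAQ and GNA15 did not match an entry).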

Additional observations from a re-analysis of the deposited data

How the results depend on the processing

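Under 16 alternatives, namely the replicate block, quantile normalization, centring on array medians, filters on level, the mean over probe sets per gene, all probe sets, a robust prior with intensity trend, array weights and omissions of arrays, limma called 0 genes, pathway genes included. Genes with an unadjusted p under 0.05 numbered 325 in the comparison as reported, 76 under the filter at the median level (9189 genes tested), 187 under the filter at the 25th percentile, 191 without GHSROS array 1 and 877 with array weights. GNAL kept its direction wherever it was measured. Omissions or weights of arrays could not reverse it, since every GHSROS array was above every empty-vector array, the pattern for which GNAL was picked. It was not measured under the filter at the median gene level (7.54), which its mean of 7.40 missed. The other members lay near 0 and changed sign easily. After quantile normalization GNAS was at 0.0048, GNAI2 at 0.001 and GNA11 at 0.015, and GNA12 was at -0.0044 after median centring. With array weights GNAI1 was at 0.082, GNAI3 at 0.012, GNA11 at 0.077 and GNA12 at -0.071. The mean of both probe sets of GNAI2 gave 0.013, and the dimmer probe sets of GNAI2 and GNA11 kept their signs under both rescalings. Without both arrays that stood apart GNAI1 was at 0.035 and GNA13 at 0.0058. The cause of these changes of sign was not tested.

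With each array left out in turn, the log2 fold changes ran from 0.54 to 0.66 for GNAL, -0.027 to 0.024 for GNAS, -0.21 to 0.14 for GNAI1, -0.050 to 0.010 for GNAI2, -0.17 to 0.076 for GNAI3, -0.10 to 0.018 for GNAQ, -0.073 to 0.094 for GNA11, -0.077 to 0.068 for GNA12, -0.041 to 0.0072 for GNA13 and -0.14 to 0.051 for GNA15. GNAI1 was at 0.14 without GHSROS array 3.

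The deviations from group means of arrays that share a replicate number correlated at -0.71, 0.50 and -0.67 across genes for numbers 1, 2 and 3, and the numbers were not taken to pair the arrays. GHSROS array 3 with empty-vector array 1 gave 0.83, and GHSROS array 1 with empty-vector array 3 gave 0.74. With the replicate number as a block the log2 fold changes are the same by construction, since every number holds 1 array of each group (0.60 for GNAL), and 0 genes were called and 223 genes had an unadjusted p under 0.05, beside 325 without the block.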
